A study of Mus musculus with 14 samples.

Results

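Of the 92842 open chromatin regions listed for the mouse blood system, 675 (0.727%, exact 95% interval 0.673 to 0.784) lay in ERVL elements. They were chosen by the element that the list names for each peak: the repeat class had to be LTR and the family exactly ERVL, so that the related ERVL-MaLR family and 17 peaks of uncertain family, written ERVL?, do not count. The assay was ATAC-seq, which reads open DNA from the cuts of Tn5 transposase, and it was run on 7 cell types of wild-type C57BL/6 mice aged 8 to 12 weeks, with 2 libraries each, for which the labels do not say whether the animals differed. From bone marrow came sorted MPP (multipotent), CMP (common myeloid), CLP (common lymphoid), GMP (granulocyte and macrophage), MEP (megakaryocyte and erythroid) and ProB (early B cell) progenitors, and from thymus ProT (early T cell) progenitors. The values used here are 1 merged list of all 14 libraries, with peaks of 499 bp, no score and no value per library. It does not say in which cells a peak was open, so no cell type can be set against another, and the cell type labels could not be checked against markers.

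ERVL elements are the remains of class III endogenous retroviruses, named after a human retrovirus that uses a leucine tRNA as its primer. A provirus has a long terminal repeat (LTR) at each end, which holds promoter and enhancer sequence, and an internal part with the viral genes, and recombination between both ends often leaves a solitary LTR. Some families entered the genome before the mammalian orders parted (MLT2, LTR16, LTR33, LTR41, MER21), while others are found in rodents (RMER, the MT2 LTRs and the MERVL internal parts). In the mouse embryo the youngest of them, MERVL with its MT2_Mm LTR, is transcribed at the 2-cell stage and starts transcripts of neighbouring genes.

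In 9 ERVL peaks the RefSeq table of promoter windows (250 bases before to 50 after a gene's start, build GRCm38.p6) places the start of a gene. Each of the 9 is a long noncoding RNA gene, 8 of them known only from predicted transcripts, and in each the start lies inside the peak. The peak list does not use these starts: it gives the peaks to other genes at distances of 4.19 to 183.5 kb, and puts 8 of them in intergenic sequence and 1 in an intron. The 9 are 1.33% of the ERVL peaks (exact 95% interval 0.611 to 2.52), against 1.21% (0.939 to 1.54) of the other LTR peaks and 2.70% (2.57 to 2.83) of the peaks in introns or intergenic sequence outside repeats. These shares were not tested against each other.

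All 9 ERVL peaks hold the annotated start, and the 5 windows that lie wholly within their peak are shown. These 5 are Gm40822 (RMER10A, chr11:31169797-31170096, minus strand), Gm52049 (MT2A, chr13:51638986-51639285, plus strand), Gm34679 (MER74A, chr16:18169265-18169564, plus strand), Gm31828 (LTR84a, chr4:93481346-93481645, minus strand) and Gm33701 (LTR33, chr9:119743966-119744265, plus strand). All are written 5′ to 3′ on the strand of the gene, from RefSeq, and capitals mark matches, on either strand, to 11 short motifs: the Gata1 letters AGATAA, the PU.1 letters GAGGAAGT, the general ETS letters CCGGAAGT, the RUNX letters TGTGGT, the E box forms CAGCTG as well as CAGGTG, the C/EBP letters TTGCNNAA, the AP-1 letters TGANTCA, the letters AGGGGGC, part of the CTCF motif, the NF-Y letters CCAAT, and the core promoter element TATAAA.
Gm40822: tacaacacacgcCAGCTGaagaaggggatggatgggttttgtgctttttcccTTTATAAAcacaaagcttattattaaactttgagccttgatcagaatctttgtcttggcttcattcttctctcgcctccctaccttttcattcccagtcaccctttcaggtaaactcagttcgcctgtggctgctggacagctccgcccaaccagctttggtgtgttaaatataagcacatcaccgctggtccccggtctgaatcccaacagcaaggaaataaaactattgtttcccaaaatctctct
Gm52049: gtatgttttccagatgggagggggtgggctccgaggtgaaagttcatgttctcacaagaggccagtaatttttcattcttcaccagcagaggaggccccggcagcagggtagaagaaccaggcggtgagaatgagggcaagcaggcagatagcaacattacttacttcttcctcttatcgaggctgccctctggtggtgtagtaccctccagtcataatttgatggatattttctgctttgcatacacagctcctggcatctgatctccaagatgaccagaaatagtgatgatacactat
Gm34679: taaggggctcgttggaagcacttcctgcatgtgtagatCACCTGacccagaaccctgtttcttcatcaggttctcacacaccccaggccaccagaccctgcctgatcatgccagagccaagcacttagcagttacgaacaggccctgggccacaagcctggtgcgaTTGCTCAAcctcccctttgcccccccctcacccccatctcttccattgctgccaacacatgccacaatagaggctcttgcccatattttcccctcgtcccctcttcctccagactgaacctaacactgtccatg
Gm31828: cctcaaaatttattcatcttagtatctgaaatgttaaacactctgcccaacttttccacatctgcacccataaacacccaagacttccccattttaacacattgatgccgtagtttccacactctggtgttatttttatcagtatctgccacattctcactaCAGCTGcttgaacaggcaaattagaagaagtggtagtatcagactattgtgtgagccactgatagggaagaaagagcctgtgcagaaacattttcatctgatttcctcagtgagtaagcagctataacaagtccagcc
Gm33701: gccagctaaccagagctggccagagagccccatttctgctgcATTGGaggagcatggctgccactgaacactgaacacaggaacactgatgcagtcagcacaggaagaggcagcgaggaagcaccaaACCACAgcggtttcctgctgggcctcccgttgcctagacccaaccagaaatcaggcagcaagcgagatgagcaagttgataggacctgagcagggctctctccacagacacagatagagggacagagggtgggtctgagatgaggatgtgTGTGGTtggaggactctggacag

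The window of Gm40822 held 2 overlapping TATAAA matches, 1 on each strand, 198 and 196 bases before the start, and a CAGCTG. That of Gm33701 held TGTGGT at 2 places and a CCAAT on the minus strand, that of Gm34679 a TTGCNNAA and a CAGGTG, and that of Gm31828 a single CAGCTG, while the MT2A window of Gm52049 matched none of the 11. Where the element itself begins and ends within these windows is not given by the list. The other 4 windows reach beyond the peak and belong to Gm31601 (MER21B), Gm46657 (LTR33), Gm41043 (LTR33B, an intergenic peak that the list gives to Pik3r1 at 144.6 kb) and Gm32657 (LTR79). Over all 9 windows TGTGGT was found in 3 (33.3%), CAGCTG in 4 (44.4%), CCAAT in 2 (22.2%) and TATAAA in 1 (11.1%), while the PU.1, ETS, AP-1 and CTCF letters matched none. Among all 32851 windows of the table the shares were 16.8% for TGTGGT, 16.3% for CAGCTG, 37.4% for CCAAT, 13.6% for TATAAA, 3.20% for the PU.1, 3.89% for the ETS, 7.81% for the AP-1 and 10.6% for the CTCF letters. AGATAA and TTGCNNAA were each in 2 of the 9 (22.2%), against 11.2% and 10.8% of all windows, and CAGGTG was in 1 (11.1%), against 20.2%. In the 72 windows in other LTR peaks TGTGGT was in 33.3%, the ERVL value, CAGCTG in 22.2%, CCAAT in 37.5% and TATAAA in 16.7%. The PU.1 letters were in 13.9% of them, the ETS in 2.78%, the AP-1 in 6.94% and the CTCF letters in 5.56%. AGATAA was in 9.72%, TTGCNNAA in 11.1% and CAGGTG in 18.1%. With 9 windows in ERVL peaks these shares are a description only.
The median G and C content of the 9 was 46.7%, with a range of 40.7% to 56.7%, near the 48.0% of the 72 windows in other LTR peaks, and below the 61.0% of the 13715 windows in any listed peak.

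By element, the 675 peaks fell under 82 names, 17 of which had a single peak, and the 10 leading names held 337 peaks (49.9%). RMER15, a rodent LTR, led with 103 peaks (15.3%), and its internal part RMER15-int added 33. LTR41 and MT2A had 37 peaks each, MER21C 26, RMER10A 24, LTR16A and LTR33 21 each, LTR41B 20 and MERVL_2A-int 15. Grouped by the start of the name, RMER15 had 136 peaks, LTR16 68 over 11 names, MT2 62 over 4 names, LTR41 57, LTR33 43, MLT2 41 and MER21 40. Internal parts held 89 peaks (13.2%, exact 95% interval 10.7 to 16.0), so most ERVL peaks carried the name of an LTR. The length and copy number of each element in the genome were not used here, so a count says how often an element was listed and not how often it was open.

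The youngest elements had few or no peaks in the list. MT2_Mm, the LTR of MERVL, and MT2C_Mm had no peak (0 of 675 each, for which the exact interval reaches 0.545%, for counting error only). MERVL-int, the internal part that MT2_Mm flanks, had 2: chr12:99629547-99630045, 1.82 kb upstream of the noncoding RNA 1700064M15Rik, and chr9:109199334-109199832, 3.61 kb upstream of Fbxw13. The MT2 peaks were instead in MT2A (37), MT2B1 (13), MT2B (11) and MT2B2 (1). Reads from near-identical copies are hard to place, and how the reads were mapped is not given in the sources used here. The part of mapping in these low counts was not tested. No ERVL peak was nearest to any of 25 genes known for expression in the 2-cell embryo (the Zscan4, Tdpoz and Usp17l families, Zfp352 and others), but only 4 of these genes had a peak of any kind, 10 peaks in all.

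**Figure D1:**
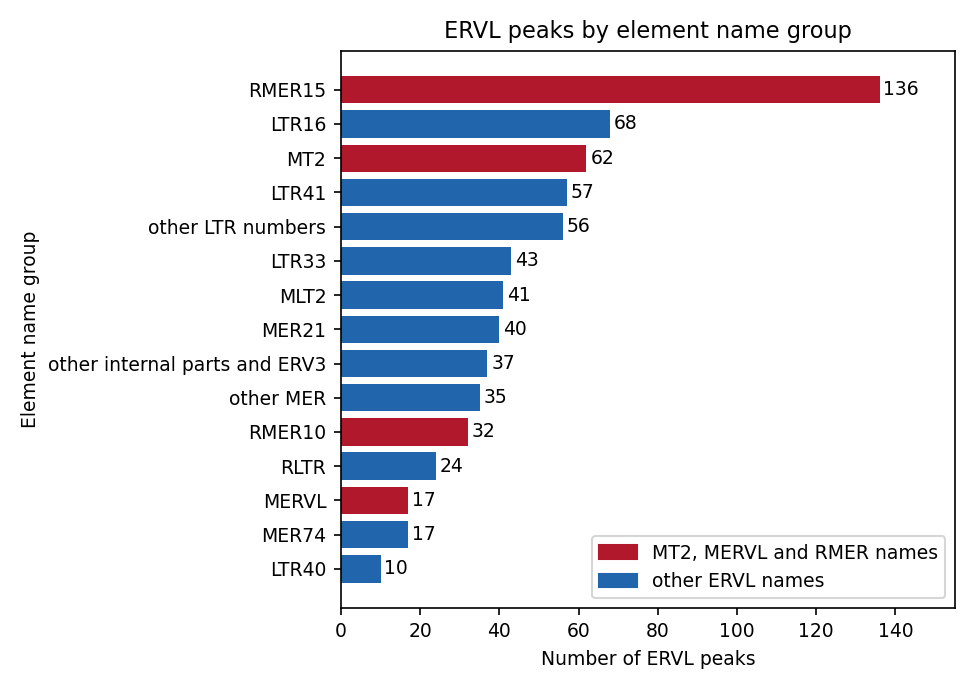
Number of ERVL peaks (x axis) in each element name group (y axis), with red bars for names starting MT2, MERVL or RMER and blue bars for all other ERVL names. RMER15 leads with 136 peaks, followed by LTR16 with 68 and MT2 with 62.

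ERVL peaks lay in introns less often than the other LTR peaks as a whole, 3658 of which are ERVL-MaLR peaks. The list puts 214 of them (31.7%, exact 95% interval 28.2 to 35.4) in introns and the other 461 (68.3%) in intergenic sequence, against 2092 of 5445 other LTR peaks in introns (38.4%, 37.1 to 39.7). Fisher's exact test, two-sided, gave adjusted p = 0.00322 for this difference of -6.72 percentage points. By family, ERVL-MaLR, the nearest relatives of ERVL, had a higher share than ERVL (42.5%, 40.9 to 44.1, adjusted p = 7.4e-07, Fisher's exact test). ERVK peaks were at 31.9% (29.4 to 34.6), about the ERVL value, and ERV1 peaks at 25.9% (21.98 to 30.2), below it, and neither was tested against ERVL. Among the intronic peaks, 71 of 214 in ERVL (33.2%, 26.9 to 39.9) and 690 of 2092 in other LTRs (33.0%, 31.0 to 35.0) lay in the first intron. How ERVL sequence itself is divided between introns and intergenic sequence was not used here, and its part in the difference was not tested. Against a wider gene set, 86 of the 461 intergenic ERVL peaks (18.7%, 15.2 to 22.5) had their centre within a gene of the RefSeq table. Of other LTRs, 650 of 3353 intergenic peaks did (19.4%, 18.1 to 20.8). Within noncoding genes or pseudogenes only lay 53 ERVL peaks (11.5%, 8.73 to 14.8) and 486 other LTR peaks (14.5%, 13.3 to 15.7). Within protein-coding genes lay the remaining 33 and 164. These shares were not tested against each other.

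No difference in distance to genes was detected between ERVL peaks and other LTR peaks. The median distance to the nearest transcription start site (TSS) was 28867 bp for ERVL peaks and 28102 bp for other LTR peaks, with upper quartiles of 68237.5 and 68036 bp. Within 10 kb of a TSS lay 140 ERVL peaks (20.7%, 17.7 to 24.0) and 20.8% (19.7 to 21.9) of other LTR peaks, and more than 100 kb away lay 110 (16.3%, 13.6 to 19.3) and 16.5% (15.5 to 17.5). The adjusted p was 1 for both (Fisher's exact test). With 1 peak counted per nearest gene, the closest, the shares within 10 kb were 21.4% in ERVL and 26.7% in other LTRs, and those beyond 100 kb 15.2% and 10.5% (adjusted p = 0.00818 and 0.00139, Fisher's exact test). That count keeps the closest of several peaks, and the 5445 other LTR peaks have more peaks per gene to choose from. Upstream of the nearest TSS lay 48.7% of ERVL peaks and 48.5% of other LTR peaks.

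Peaks outside repeats lay closer to genes. In the list 39.8% of them were within 10 kb of a TSS, against 20.7% of ERVL peaks (adjusted p = 3.54e-25, Fisher's exact test), but this group holds all promoter peaks, whereas each of the 14822 peaks named for a repeat lay in an intron or in intergenic sequence. The closest ERVL peak was 1028 bp from a TSS used by the list. Against only the 60706 peaks outside repeats in introns or intergenic sequence, a set chosen after seeing the data, 20.7% of ERVL peaks faced 26.3% within 10 kb, a difference of -5.53 points (adjusted p = 0.00239, Fisher's exact test). In the same setting the share in introns was 31.7% of ERVL peaks and 53.1% of peaks outside repeats. That comparison set was picked by the annotation that also gives the intron call, and its intron share depends on this choice. Among all 78020 peaks outside repeats 41.3% were in introns. A test of the intron shares cannot separate a difference from the choice of the set, so no conclusion is drawn from it. The share more than 100 kb from a TSS was higher in ERVL peaks than in all peaks outside repeats (16.3% and 12.0%, adjusted p = 0.00207, Fisher's exact test), a call that ended against the intron and intergenic set (15.1%, adjusted p = 0.388, Fisher's exact test).

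A neighbouring peak was less common at ERVL peaks than outside repeats, and no difference from other LTR peaks was detected. Another listed peak lay within 5 kb of 345 ERVL peaks (51.1%, 47.3 to 54.9), of 52.9% of other LTR peaks and of 56.9% of peaks outside repeats, and the median gap to the closest peak was 4857, 4622 and 3914 bp in the same order. The adjusted p was 0.652 against other LTRs and 0.00352 against peaks outside repeats (Fisher's exact test). The second call ended without the rodent elements, at 52.1% and adjusted p = 0.0502 (Fisher's exact test). With 1 peak per nearest gene the shares were 51.1% in ERVL and 45.5% outside repeats (adjusted p = 0.00732, Fisher's exact test). Peaks of 1 locus are not independent, so all of these p-values are too small to an unknown degree, and there are no replicates behind them.

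**Figure D2:**
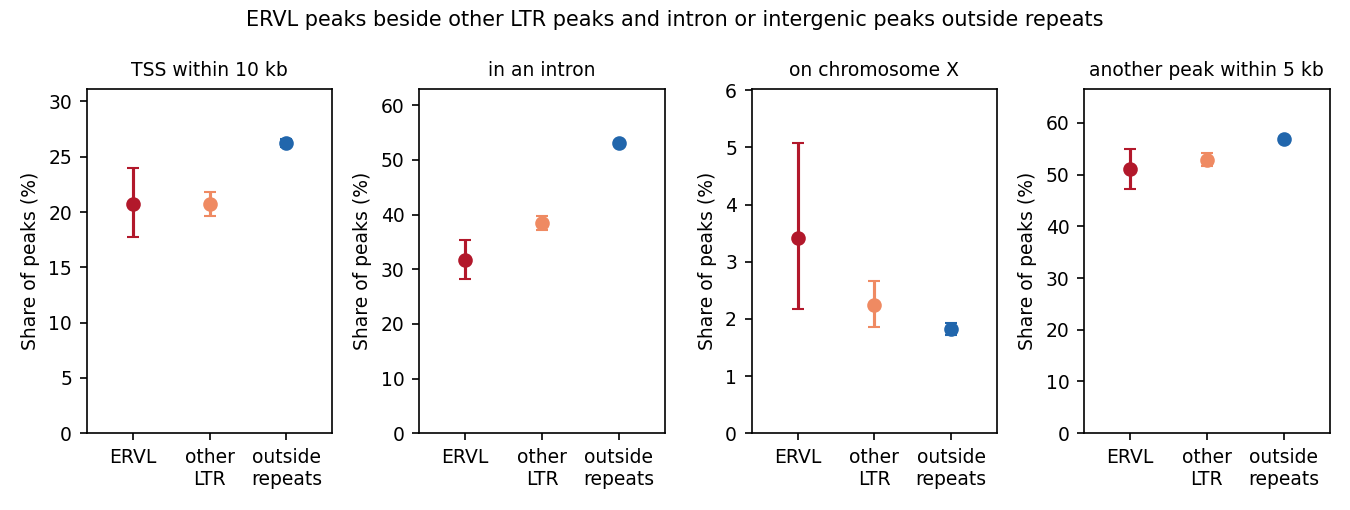
Share of peaks (y axes, %) with a TSS within 10 kb, in an intron, on chromosome X, and with another peak within 5 kb, for ERVL peaks, other LTR peaks, and peaks outside repeats in introns or intergenic sequence (x axes); bars are exact 95% intervals, which cover counting error only. ERVL peaks are at 31.7% in introns, below the 38.4% of other LTR peaks, while the shares within 10 kb of a TSS are 20.7% and 20.8%.

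Within the family, rodent elements (247 peaks with names starting MT2, MERVL or RMER) lay nearer to genes than the 428 peaks of all other names. Within 10 kb of a TSS lay 66 rodent peaks (26.7%, 21.3 to 32.7) and 74 others (17.3%, 13.8 to 21.2), a difference of 9.43 points (adjusted p = 0.0106, Fisher's exact test), and the median distances were 21885 and 32745 bp. Introns held 97 rodent peaks (39.3%, 33.1 to 45.7) and 117 others (27.3%, 23.2 to 31.8), a difference of 11.9 points (adjusted p = 0.00748, Fisher's exact test). Without the rodent names, ERVL peaks were at 27.3% in introns and other LTR peaks at 38.4% (adjusted p = 1.87e-05, Fisher's exact test). More than 100 kb from a TSS lay 15.8% of rodent peaks and 16.6% of the others, and another peak was within 5 kb of 49.4% and 52.1% (adjusted p = 0.829 and 0.654, Fisher's exact test). With 50 kb in place of 10 kb the shares were 71.3% and 65.2% and the call ended (adjusted p = 0.309, Fisher's exact test). The names were grouped by their start alone, and the 24 peaks with names starting RLTR, also rodent LTRs, count among the others; moved to the rodent side they left both differences past the threshold (7.89 points within 10 kb and 10.5 points in introns, adjusted p = 0.0385 and 0.0209, Fisher's exact test).

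**Figure D3:**
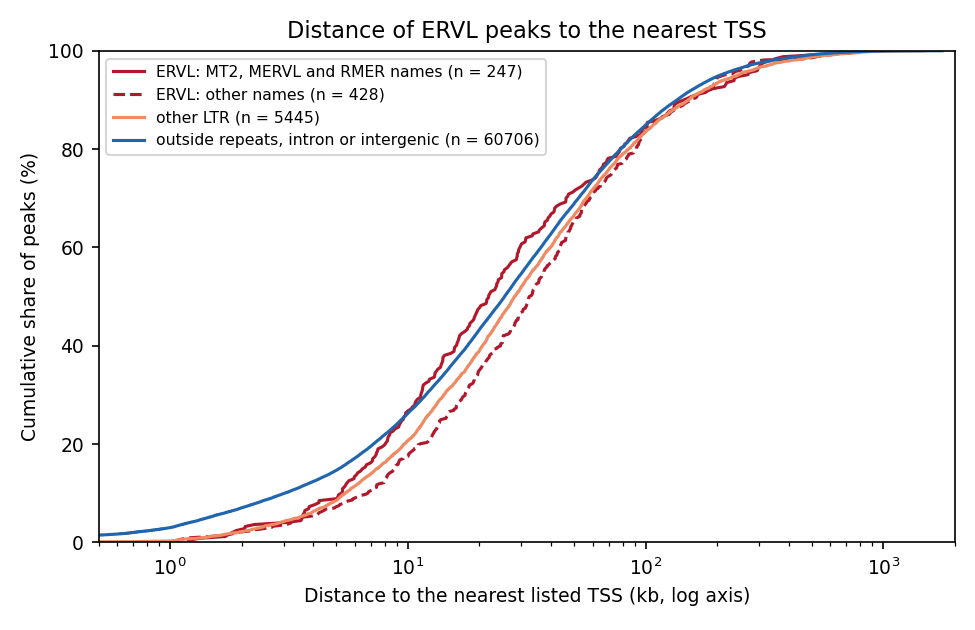
Cumulative share of peaks (y axis, %) by distance to the nearest listed TSS (x axis, kb, log scale) for rodent ERVL names, other ERVL names, other LTR peaks, and intron or intergenic peaks outside repeats. At 10 kb the rodent ERVL curve is at 26.7% and the curve of the other ERVL names at 17.3%.

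The name groups differed widely, as far as their sizes allow. MT2 peaks had the highest share within 10 kb of a TSS (21 of 62, 33.9%, 22.3 to 47.0), with a median distance of 16650.5 bp. MER21, an older group, was at 30.0% (12 of 40, 16.6 to 46.5), with 20 of 40 in introns (50%) and 30 of 40 (75%, 58.8 to 87.3) within 5 kb of another peak, and RMER15 was at 24.3% (33 of 136). LTR16 had the lowest share within 10 kb among groups of over 40 peaks (5 of 68, 7.35%, 2.43 to 16.3), with 16 of 68 beyond 100 kb (23.5%) and a median distance of 46172.5 bp. The 56 peaks of the less frequent LTR names as a group had 8 within 10 kb (14.3%, 6.38 to 26.2), but more beyond 100 kb (17 of 56, 30.4%) and a median of 47340.5 bp. LTR33 (6 of 43), MLT2 (7 of 41, 17.1%) and LTR41 (11 of 57, 19.3%) lay between. The intervals of MT2 and LTR16 do not overlap, while those of neighbouring groups do, and since these groups were compared after their values had been seen no test was made.

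**Figure D4:**
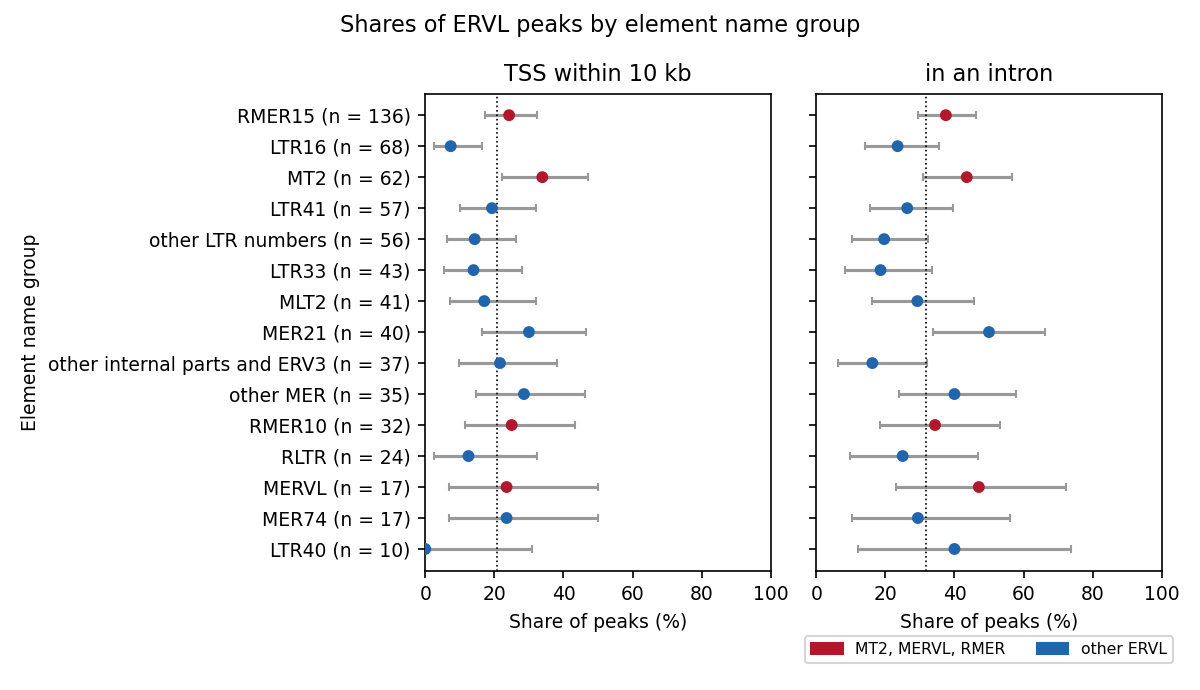
Share of peaks (x axes, %) with a TSS within 10 kb (left) and in an intron (right) for each element name group (y axis, with its number of peaks), red for MT2, MERVL and RMER names and blue for the rest; bars are exact 95% intervals and dotted lines the value of all ERVL peaks. MT2 is at 33.9% and LTR16 at 7.35% within 10 kb.

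By chromosome, ERVL peaks made up 0.720% ± 0.143 of the listed peaks (mean and SD over 19 autosomes), with the lowest share on chromosome 8 (20 of 4465, 0.448%) and the highest on chromosome 1 (67 of 6592, 1.02%). On the X chromosome they made up 1.19% (23 of 1930, exact 95% interval 0.757 to 1.78), above the value of each autosome, and none of the 14 peaks on chromosome Y was in an ERVL element. Put the other way, 3.41% of ERVL peaks (2.17 to 5.07) lay on the X, against 2.24% of other LTR peaks (adjusted p = 0.198, Fisher's exact test) and 2.05% of peaks outside repeats (adjusted p = 0.0195, Fisher's exact test). The difference from other LTR peaks passed the threshold against ERVL-MaLR alone (1.80%, adjusted p = 0.0281, Fisher's exact test). It also did for the 428 peaks without rodent names (4.21%, adjusted p = 0.0482, Fisher's exact test). Between these and the 247 rodent peaks, 5 of which lay on the X (2.02%), no difference was detected (adjusted p = 0.309, Fisher's exact test). ERVK peaks were at 3.07% (2.19 to 4.18) and ERV1 peaks at 2.81% (1.50 to 4.75), nearer to the ERVL value, and neither was tested against ERVL. With 1 peak per nearest gene the share on the X was 3.26% in ERVL and 3.30% outside repeats. The call against peaks outside repeats ended there (adjusted p = 1, Fisher's exact test). The 23 peaks of the X included 6 in LTR16 elements, 8.82% of that group.

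**Figure D5:**
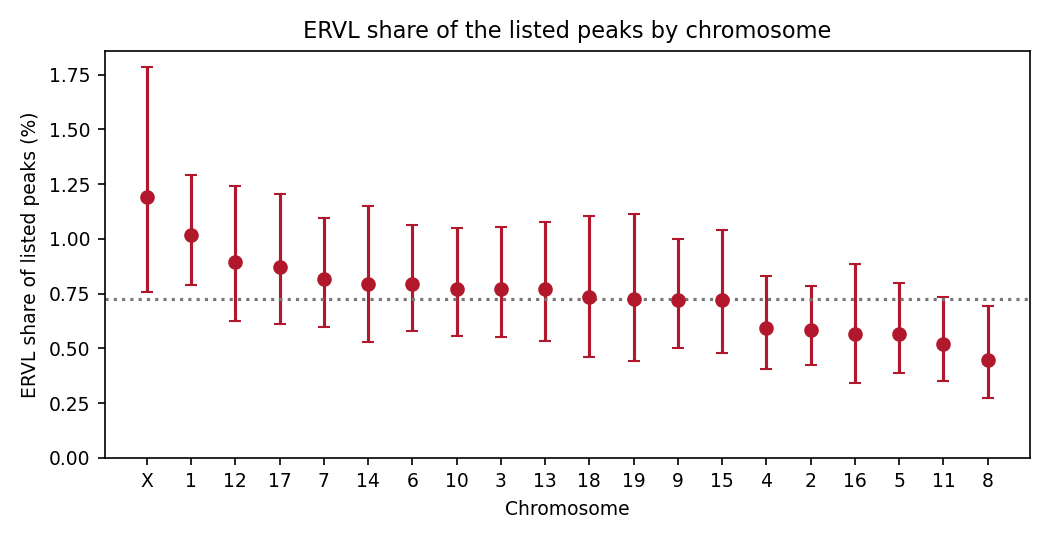
ERVL share of all listed peaks (y axis, %) on each chromosome with at least 1 ERVL peak (x axis, ordered by share); bars are exact 95% intervals and the dotted line is the share over all chromosomes. The X is highest at 1.19% and chromosome 8 lowest at 0.448%.

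The next question was which genes have an ERVL peak nearby. The 675 peaks were nearest to 644 genes, 31 of which had 2 such peaks and none more. Protein-coding genes were nearest to 85.8% of ERVL peaks and to 86.4% of all peaks, and noncoding RNA genes to 13.6% and 12.7%. Of 134 genes on 7 lists of blood lineages, 9 were nearest to an ERVL peak, with 1 peak each. These 9 peaks are 1.33% of the ERVL peaks (exact 95% interval 0.611 to 2.52), against 1.01% of other LTR peaks and 1.51% of all peaks, so that blood genes held about the share of ERVL peaks that they held of all peaks. No ERVL peak was nearest to a gene of the erythroid list (20 genes, 0.133% of all peaks), the megakaryocyte list (18 genes, 0.151%), the housekeeping list (18 genes, 0.0948%) or the list of unrelated tissues (20 genes, 0.0420%). For 0 of 675 the exact 95% interval reaches 0.545%, above each of these shares, so the zeros show no difference from all peaks.

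Each of the 9 peaks at blood genes was intergenic, and 7 lay upstream of the nearest TSS. Cybb encodes the membrane subunit of the phagocyte oxidase that makes superoxide, and its ERVL peak, in LTR33A, lay 1.63 kb upstream of the TSS (chrX:9470707-9471205), the closest of the 9. Procr, the protein C receptor that marks blood stem cells, had a peak in LTR16A 5.84 kb downstream of its TSS (chr2:155756811-155757309), with another listed peak only 643 bp away. Etv6, an ETS repressor needed for blood formation in the bone marrow, had a peak in LTR33C 14.7 kb upstream (chr6:134020718-134021216), 1 of its 40 peaks. Kit, the receptor of stem cell factor, had a peak in LTR16C 109 kb upstream (chr5:75465774-75466272). For Klf4, a factor of monocyte development, the peak was in LTR16B 43646 bp downstream (chr4:55488580-55489078).

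The lymphoid genes of the lists had RMER15 or MLT2F peaks. Ets1, a factor of lymphoid cells, had a peak in RMER15 35.5 kb upstream of its TSS (chr9:32660306-32660804), and Mef2c, which takes part in the lymphoid choice of progenitors, a peak in RMER15-int 30.1 kb upstream (chr13:83473708-83474206). Runx3, a factor of cytotoxic T cells, had one in RMER15-int 77.9 kb upstream (chr4:135042473-135042971). Bcl6, the repressor of germinal centre B cells, had one in MLT2F 73.7 kb upstream (chr16:24062048-24062546). The 5 peaks at the stem cell, granulocyte and macrophage genes were in LTR16 (Procr, Kit, Klf4) or LTR33 elements (Cybb, Etv6), a split over 9 peaks that is a description only. The list assigns each peak by TSS distance alone, and the gene a region acts on may be another.

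No ERVL peak lay within 1 kb of a TSS used by the list, although 9 hold the start of a RefSeq noncoding RNA gene. Of the other LTR peaks 0.275% lay within 1 kb, and the list names no promoter peak for a repeat. The 15 closest ERVL peaks, named after their values had been seen, lay from 1028 to 1966 bp away. Of these, 12 were upstream of the TSS and 3 in introns. Xpo7, a nuclear transport receptor, had the closest, in LTR67B (chr14:70767407-70767905), and Pla2g4c, a phospholipase, the next, in MER54B, 1078 bp upstream (chr7:13324340-13324838). Immune genes in this group, beside Cybb, were Slamf6, a receptor of T and natural killer cells, with RMER15-int 1706 bp upstream (chr1:171915582-171916080), and Trem1, an activating receptor of neutrophils and monocytes, with MER54A 1865 bp upstream (chr17:48230625-48231123). Rbfox2, a splicing factor, had MER74C in its first intron 1124 bp downstream of a TSS. The other 9 were Wdfy1 and Lrrc20 (RMER15), Ppp6r2 (LTR41), Noxred1 (MLT2F), Cep83 (RMER10A), 1700121N20Rik (MER74C), 1700064M15Rik (MERVL-int), Pycrl (MT2A) and Disc1 (ERVL-int).

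At the far end, 10 peaks lay from 502.7 to 849.5 kb from the nearest TSS. The farthest was in MT2A (chr15:19817051-19817549) and given to Acot10, and the next in LTR16C and given to Trps1, a GATA-type repressor, at 842.2 kb. The elements of the other 8 were LTR41 (2), RMER15-int (2), LTR41B, MLT2B3, LTR16B2 and ERV3-16A3_I-int, and 3 of the 10 were in introns.

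Pairs of ERVL peaks were rare. Neighbouring ERVL peaks lay within 10 kb of each other at 9 places, and at 5 of these both had the same element name. In Lbr, which encodes the lamin B receptor that shapes the neutrophil nucleus, 2 MT2B peaks lay in introns 6 and 2, 13.8 and 5.03 kb from the TSS and 8257 bp apart (chr1:181828368-181828866 and chr1:181837124-181837622). In Prex1, a Rac activator of neutrophils, 2 RMER15-int peaks lay 1296 bp apart, 7.11 and 5.31 kb from the TSS (chr2:166706476-166706974 and chr2:166708271-166708769). Afg3l2, a mitochondrial protease, had 2 RMER10A peaks 214 bp apart, Zfp1 2 MERVL_2A-int peaks 2982 bp apart, and 2 LTR50 peaks near Hpcal4 lay 6194 bp apart. Whether such peaks belong to 1 insertion cannot be told from the list.

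Of the 31 genes with 2 ERVL peaks, Slamf6 had its second in RLTR35B_MM, 31.6 kb downstream. Genes with known roles in leukocytes were also Alox5ap, the 5-lipoxygenase activator of leukotriene synthesis (MLT2B1 2.95 kb upstream and MT2B 9.78 kb downstream of the TSS), and Mir181a-1. Others include Baz2b, a chromatin reader with 24 peaks in all (MT2B2 and MER21B), Slc16a1, a lactate transporter (MLT2B3 and LTR67B), Ext1, which builds heparan sulphate (LTR16A2 and RMER15), Golim4 (RMER15 at 2 places in introns, 38.7 and 26.6 kb from the TSS) and H2-M10.5, a class I histocompatibility gene for which 2 of 3 listed peaks were in LTR41.

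MicroRNA genes were nearest to 31 ERVL peaks (4.59%, exact 95% interval 3.14 to 6.46), against 3.31% (2.85 to 3.82) of other LTR peaks and 3.20% of all peaks, a difference that was not tested. None of these peaks overlapped a microRNA itself. Mir181a-1 was the only one of the 30 microRNA genes with 2 ERVL peaks, in MLT2D 48.9 kb upstream (chr1:137917320-137917818) and in LTR16B2 502.7 kb upstream (chr1:137463490-137463988), out of 20 peaks given to it. The microRNA it encodes sets the sensitivity of developing T cells to antigen and favours B cells when raised in progenitors, and its mature forms from RefSeq (GRCm38.p6, plus strand) are shown for the gene with capitals for the seed, bases 2 to 8.
mmu-miR-181a-5p: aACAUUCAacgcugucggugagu
mmu-miR-181a-1-3p: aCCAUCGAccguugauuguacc

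Other microRNA genes of blood cells nearest to an ERVL peak were Mir146, a brake of innate immune signalling (LTR33, 15.6 kb), and Mir29a (MLT2B2, 29.5 kb). So were Mir17 of a cluster that B cell development requires (LTR41B, 28.2 kb) and Mir148a (RMER15, 125.6 kb). These, the genes with 2 ERVL peaks given a role and the name groups compared were picked after their values had been seen. The 30 microRNA genes also include Mir122 (RMER15, 53.9 kb), Mir302b (MLT2B1, 94.1 kb) and Mir184 (RLTR35B_MM, 20.6 kb), not picked for a role in blood cells. Whether microRNA genes of blood cells are more common among the 30 was not tested.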

How the data were processed

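The data are 1 deposited list of peaks merged over 14 ATAC-seq libraries. Per the file header the authors annotated it with annotatePeaks on mm10; HOMER 4.10.2 is in the submitters' processing notes. The sources used here name no aligner, peak caller or way of merging. Positions and signed distances to the nearest TSS are in bp, as deposited. The deposited peak score is 0 in each row and was not used. Depth is unknown.

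Members, lists and tests were chosen with earlier results of these data known. Shares were compared by two-sided Fisher's exact test (SciPy 1.17.1) over peaks, with Benjamini-Hochberg adjustment over the 5 or 4 shares of a comparison and 0.05 as the threshold, and have exact (Clopper-Pearson) 95% intervals. The test was checked on simulated independent counts, a check that does not cover the dependence of peaks of 1 locus. Positions of RefSeq genes (GRCm38.p6, the same primary assembly as mm10) were overlapped by at least 1 base. With no genome sequence used here, peak sequences were not searched for motifs, and promoter windows that overlap a peak took their place. Genes were named by a rule. It took peaks within 1 kb of a TSS used by the list (there were none), the 10 farthest, and peaks of list genes. It also took MERVL-int and MT2_Mm peaks, and genes with the most ERVL peaks. Results outside this rule are said to be chosen after their values were seen. Alternatives were other limits and comparison groups, autosomes only, 1 peak per gene, and leaving out internal or rodent elements.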

Additional observations from a re-analysis of the deposited data

Results flagged for a closer look

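Outside the comparisons, 17 peaks lay in elements whose family is written ERVL?, that is of uncertain membership: 11 in LTR55, 4 in LTR87 and 2 in LTR89. They are given here because no comparison uses them, and with them added the share would be 0.745% of all peaks.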

How the results depend on the processing

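No paired analysis was possible because the list holds no values per library. Of 81 values under alternatives, 66 counted as the same. For a tested difference this means the same direction and side of the threshold. For the share of all peaks in ERVL elements it means a value within the main interval. Among the 66 were the intron differences against other LTR peaks and between rodent and other names, under each alternative run. No alternative left out the ERVL-MaLR peaks (3658 of 5445), and the intron difference without them was not tested. Intron shares were 42.5% in ERVL-MaLR, 31.9% in ERVK and 25.9% in ERV1 peaks, against 31.7% in ERVL peaks. Differences follow in percentage points. With 1 peak per nearest gene, ERVL minus other LTR was -5.26 within 10 kb and 4.76 beyond 100 kb, and ERVL minus outside repeats was -0.0362 on the X and 5.57 for a peak within 5 kb in the same setting. That setting keeps the closest peak of each gene, which by construction favours short distances where a gene has several peaks. Against ERVL-MaLR alone the values were 0.484 within 10 kb and 1.60 on the X. Without rodent elements they were 0.0966 beyond 100 kb and 1.97 on the X against other LTRs, and -4.80 for a peak within 5 kb against outside repeats. Against intron and intergenic peaks outside repeats the value beyond 100 kb was 1.17. With a limit of 50 kb, ERVL minus other LTR was 0.906 within it, and rodent minus other names 6.07. Rodent minus other names was 0.0181 beyond 100 kb on autosomes, 1.06 beyond 250 kb and 1.33 for a peak within 10 kb. The cause of these changes, those on the X and for neighbouring peaks included, was not tested. Of the 9 changes of direction, 3 had a value past the threshold on either side. The motif search in the central bases of peaks was not run. Depth is unknown, so how many weak ERVL peaks were missed cannot be said.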
